A study of Mus musculus with 7 samples.

Results

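Delta-marker cells are the islet cells that the authors' clustering of gene counts placed in the cluster named 3_delta, and they were set against the alpha cells of the clusters named 1_alpha and 9_alpha. The delta-marker cells numbered 592 of 5907 kept cells (10.0%), with 435 in replicate 1 and 157 in replicate 2. The alpha cells numbered 1200 (20.3%), with 961 and 239. Other clusters that the authors named delta were not counted as delta-marker cells. All cells came from islets of female C57BL/6 mice aged 10 weeks, with no treatment or genotype difference between the cell types. Islets were freed with collagenase, dissociated with Accutase and loaded on a droplet system for 5' single-cell cDNA, with added dNTP and extensions lengthened to 2 h and 3 min. Insulin cDNA was then cut with a Cas9 guide panel, and the remaining cDNA was read on a Nanopore sequencer, whose long reads can span whole transcripts. The labels name 7 samples in 4 protocol groups, and the tables read here cover both libraries of this modified 5' protocol. Nothing in the labels says that these libraries came from separate animals, so the spread behind the p-values may be technical. It is the spread left between the libraries after their common difference is removed, estimated over 6 cell types.

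Delta cells secrete somatostatin, a peptide that acts on neighbouring alpha and beta cells through inhibitory G protein-coupled receptors. Alpha cells secrete glucagon, which raises hepatic glucose output and whose release is driven by falling glucose and by amino acids. Both types arise from pancreatic endocrine progenitors and store their peptides in dense-core granules, but they depend on different transcription factors, of which Hhex is the one best known for delta cells.

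The comparison turns first on the genes of the hormones themselves, so their coding bases are shown as landmarks. They are taken from the GENCODE M21 transcripts (mouse GRCm38, minus strand for both). The Sst line gives the 42 bases that encode somatostatin-14, at chr16:23889732-23889773, with the 2 cysteine codons in capitals. These cysteines form the disulfide bridge of the peptide. The Gcg line gives the 29 codons of glucagon, at chr2:62478560-62478658, with the Lys-Arg codons on either side, where proglucagon is cut, in capitals.
Sst: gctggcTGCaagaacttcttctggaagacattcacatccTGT
Gcg: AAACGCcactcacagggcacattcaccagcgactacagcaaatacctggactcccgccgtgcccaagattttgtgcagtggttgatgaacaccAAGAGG

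UMIs, unique molecular identifiers that count cDNA molecules, were summed over the cells of each type in each library. Delta-marker cells held 1022169 UMIs in replicate 1 and 1649832 in replicate 2, and alpha cells held 1911504 and 2285311. Median UMIs per cell were close between the types within a library, at 2068 and 8991 in delta-marker cells and 1959 and 8917 in alpha cells. Thinned to 1000 UMIs per cell, a median delta-marker cell had 563 and 548 genes, against 446 and 507 genes in a median alpha cell. This left out 7 delta-marker and 59 alpha cells of replicate 1. Unthinned, the medians were 1025 and 2963 genes in delta-marker cells, against 780 and 2708 in alpha cells. Genes of the mitochondrial genome took 0.880 and 1.66% of UMIs in delta-marker cells, against 0.857 and 1.64% in alpha cells. Replicate 2 had fewer cells of both types, each with more UMIs. A single barcode among these cells occurred in both libraries.

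The hormone genes stood where the cell names put them. Sst had 153701 and 111202 CPM in delta-marker cells, against 716 and 286 CPM in alpha cells (replicate 1 first, CPM gives a gene's share of the UMIs of its sum), a log2 fold change of 7.87 ± 0.77 (SE, 2 libraries a side, edgeR adjusted p = 1.4e-07). Gcg had 4925 and 2409 CPM in delta-marker cells, against 304147 and 166138 CPM in alpha cells, a log2 fold change of -6.30 ± 0.77 (adjusted p = 3.6e-06). Each hormone differed far beyond the spread between libraries. The clusters were drawn from these same gene counts, so the p-values of both hormones are circular and do not test the cell names. Gcg UMIs were found in 67.4 and 100% of delta-marker cells with a median of 1 and 7 per cell, and in beta cells, which should lack them, in 56.7 and 94.0% at a median depth of 2223.5 and 9947 UMIs. Sst UMIs were found in 27.9 and 80.3% of alpha cells, and in 23.2 and 64.1% of beta cells. Gcg exceeded Sst in 6 and 1 delta-marker cells, and Sst exceeded Gcg in 5 and 1 alpha cells.

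Iapp, which encodes amylin, was the only other hormone gene past the threshold. It had 34644 and 37194 CPM in delta-marker cells, against 2324 and 6745 CPM in alpha cells, a log2 fold change of 2.73 ± 0.57 (adjusted p = 0.00223), and the log2 difference within a library was 3.56 in replicate 1 and 2.26 in replicate 2. Ppy, the pancreatic polypeptide gene, had 25476 and 36948 CPM in delta-marker cells, against 11902 and 11807 CPM in alpha cells. Pyy, which encodes peptide YY, had 31780.5 and 46039 CPM in delta-marker cells, against 14721 and 26497 CPM in alpha cells. Both genes were higher in delta-marker cells in each library, but neither passed (log2 fold changes of 1.13 ± 0.53, adjusted p = 0.238, and 0.67 ± 0.48, adjusted p = 0.509). Single cells differed more than these sums. The median cell had 20382 and 35946 CPM of Ppy among delta-marker cells, against 598 and 632 CPM among alpha cells. For Pyy it had 27421 and 44942 CPM, against 5929 and 14763 CPM. The summed levels of both genes in delta-marker cells were above those of beta cells, where Ppy had 1134 and 2932 CPM and Pyy had 682 and 2201 CPM. Ins1 had 348 and 169 CPM in delta-marker cells, against 95.2 and 143 CPM in alpha cells. Ins2 had 805 and 385 CPM in delta-marker cells, against 184 and 338 CPM in alpha cells. Neither insulin gene passed (adjusted p = 0.241 and 0.365), and their cDNA was a target of the depletion. Ghrl, the ghrelin gene, had 2 and 0 UMIs in delta-marker cells, against 1 and 1 UMIs in alpha cells, and it was not tested.

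Because the clusters were drawn from these same gene counts, the marker genes below describe the cells and do not test them. Of the 6 delta markers listed for the label, 5 passed as higher. Hhex, the transcription factor that delta cells need (chromosome 19, 37434810 to 37440731, GRCm38), had 425 and 300.0 CPM in delta-marker cells, against 1.05 and 1.31 CPM in alpha cells (log2 fold change 7.95 ± 0.54). Cd24a, a glycosylated surface protein, had 495 and 535 CPM in delta-marker cells, against 1.05 and 1.31 CPM in alpha cells (8.43 ± 0.43). Ghsr, the ghrelin receptor, had 15 and 22 UMIs in delta-marker cells, against 0 and 0 UMIs in alpha cells, which is at least 16.1-fold higher when 3 UMIs over both libraries stand for the undetected alpha level, and this call was lost in DESeq2 (adjusted p = 0.108). Rbp4, a retinol carrier, was 1.97 log2 units higher. The remaining marker, Nkx6-3, went against the label, with 0 and 0 UMIs in delta-marker cells, against 9 and 6 UMIs in alpha cells (adjusted p = 0.0588).

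All 8 alpha markers were past the threshold as lower in delta-marker cells. The Iroquois homeobox gene Irx1 had 0 and 2 UMIs in delta-marker cells, against 103 and 151 UMIs in alpha cells, and Irx2 had 3.91 and 7.88 CPM in delta-marker cells, against 84.2 and 78.8 CPM in alpha cells. Pou3f4, a POU-domain factor, had 2 and 2 UMIs in delta-marker cells, against 31 and 40 UMIs in alpha cells. Ttr, the thyroid hormone carrier transthyretin, had 744 and 889 CPM in delta-marker cells, against 38452 and 56144 CPM in alpha cells (-6.10 ± 0.48), and the glutamine transporter gene Slc38a5 fell by 1.90 on the log2 scale.

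**Figure D1:**
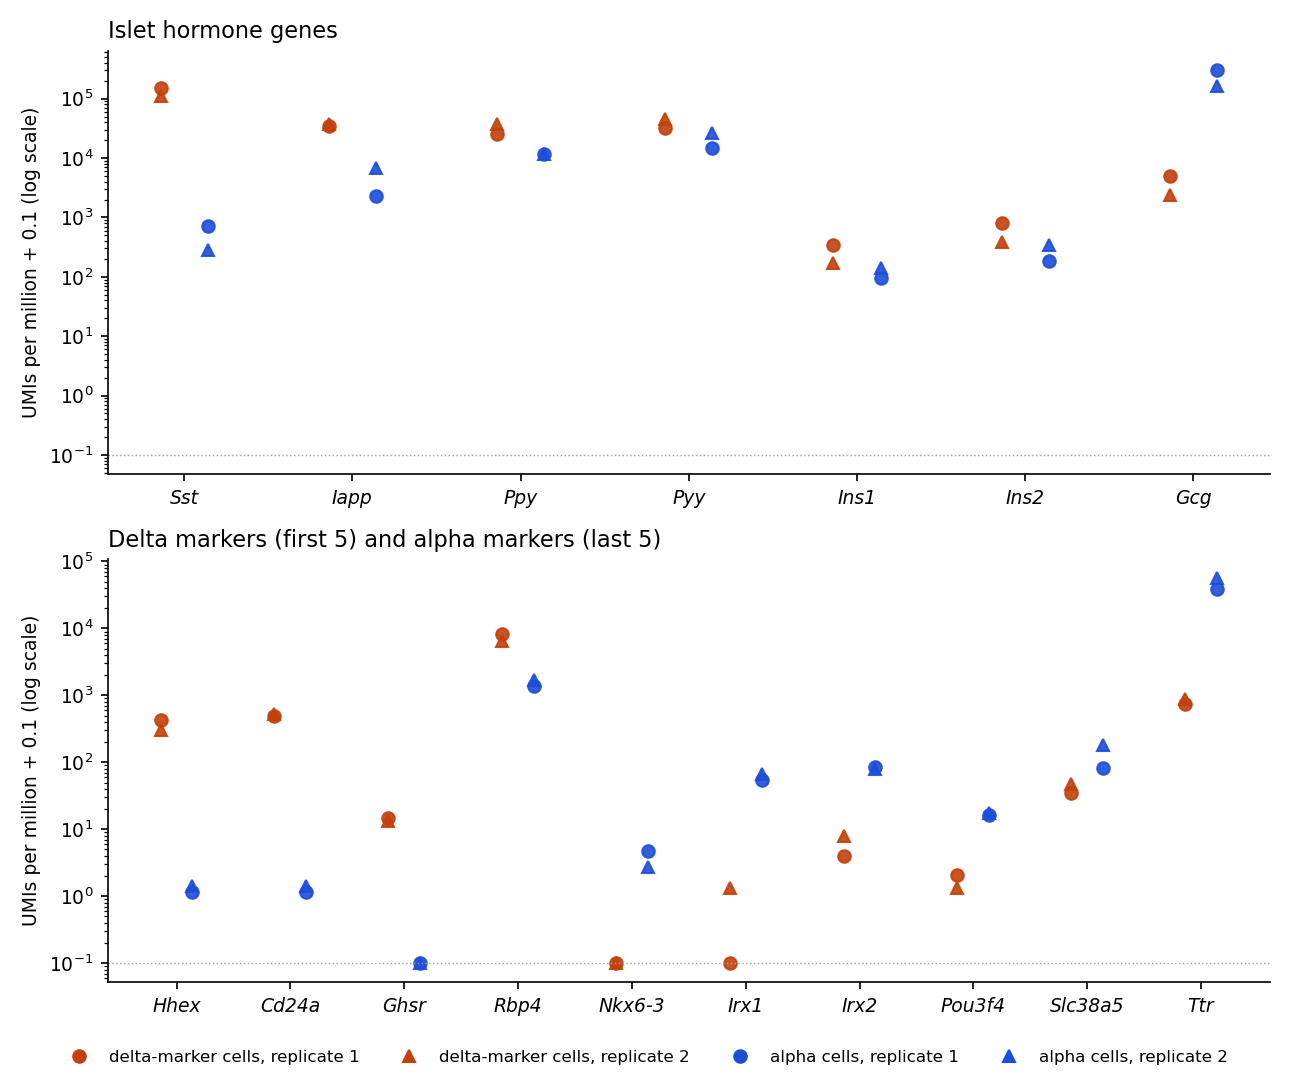
CPM plus 0.1, on a log scale, for 7 islet hormone genes (top) and for delta and alpha markers (bottom), with 1 point for each cell type and library, and points on the dotted line have 0 UMIs. Delta-marker cells stand apart from alpha cells in both libraries for Sst, Gcg and the markers drawn. The delta marker described above as going against its label is an exception, since it was higher in alpha cells and did not pass. Ins1, Ins2, Ppy and Pyy differ less and did not pass either.

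Across all genes, 1025 of 11793 tested passed at an edgeR adjusted p of 0.05 (8.69%), 619 higher (5.25%) and 406 lower (3.44%) in delta-marker cells. In each of the 1025 the difference had the same sign in both libraries. Both libraries entered the fit, and passing it favours like signs, so this is no independent replication. The median size of the log2 difference was 2.02 among the higher genes and 1.69 among the lower ones, and 97 higher and 52 lower genes differed by more than 4 log2 units. The median log2 fold change of all genes tested was -0.0081, so gene groups can be read against a centre near 0. This centre rests on TMM scaling, whose factors were 1.02 and 0.970 for delta-marker cells and 0.808 and 0.838 for alpha cells. Without it the median of all genes was 0.25, and the split was 1139 genes higher and 274 lower. Across genes, the log2 differences of the 2 libraries had a Pearson r of 0.746 (n = 11793 genes), or 0.880 over the 4565 genes with at least 200 UMIs. Genes are not independent replicates, and the libraries differ in depth per cell.

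**Figure D2:**
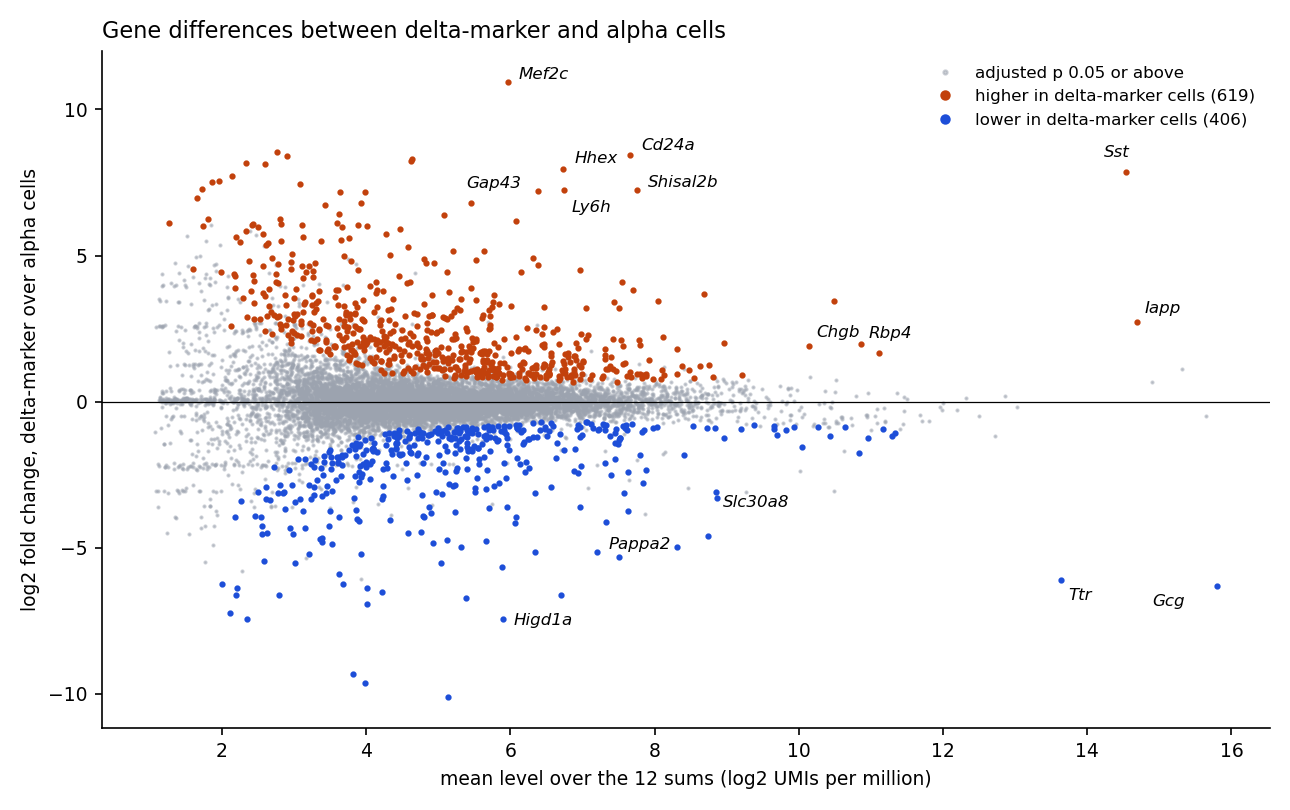
Log2 fold change of delta-marker over alpha cells (vertical) against the mean level over the 12 sums of the fit (horizontal, log2 CPM), with 1 point per gene tested. The 619 genes higher in delta-marker cells and the 406 lower ones are coloured, and the fitted values of genes with 0 UMIs in one cell type, such as Mef2c, depend on the prior count of the fit.

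The gene with the largest rise among those above median expression over the 12 sums was Mef2c (chromosome 13, 83504034 to 83667080), which encodes a MADS-box transcription factor of muscle, heart and neurons. It had 170 and 236 UMIs in delta-marker cells, against 0 and 0 UMIs in alpha cells, at least 177-fold higher. Mef2c was also present in endothelial cells, at 327 and 102 CPM, and in stellate cells, at 261 and 232 CPM. The 6 endothelial markers together had 8 and 18 UMIs in delta-marker cells, against 35 and 17 UMIs in alpha cells, and the 6 stellate markers 0 and 1 UMIs in delta-marker cells, against 2 and 2 UMIs in alpha cells. What part either cell type had in the Mef2c level was not tested. Ly6h, a GPI-anchored protein of neurons, had 537 and 448 CPM in delta-marker cells, against 3.66 and 1.75 CPM in alpha cells (7.26 ± 0.42, adjusted p = 4.9e-11), and Shisal2b had 790.5 and 1023 CPM in delta-marker cells, against 4.19 and 5.69 CPM in alpha cells (7.24 ± 0.41). Gap43, a growth-cone protein, had 424 and 296 CPM in delta-marker cells, against 2.09 and 1.75 CPM in alpha cells (7.22 ± 0.55). Every one of these genes was high in both delta-marker sums and close to 0 in both alpha sums. Dpp6, an auxiliary subunit of A-type potassium channels, had 247 and 180.0 CPM in delta-marker cells, against 5.75 and 3.94 CPM in alpha cells (5.17 ± 0.32).

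Several of the largest rises encode secreted or matrix-bound proteins. Ptn, the heparin-binding growth factor pleiotrophin, had 67 and 77 UMIs in delta-marker cells, against 0 and 2 UMIs in alpha cells, a ratio of 94.2 (25.6 to 785) with its 95% counting interval. Prss23, a secreted serine protease, had 54 and 46 UMIs in delta-marker cells, against 0 and 1 UMIs in alpha cells. Frzb, a secreted Wnt antagonist, had 207 and 187 CPM in delta-marker cells, against 3.14 and 9.19 CPM in alpha cells (4.68 ± 0.34), and Nbl1, a secreted BMP antagonist, had 85.1 and 72.7 CPM in delta-marker cells, against 2.09 and 2.63 CPM in alpha cells (4.73 ± 0.41). Cela1, a pancreatic elastase gene, had 139 and 287 UMIs in delta-marker cells, against 0 and 22 UMIs in alpha cells, and its log2 difference was 6.75 in replicate 1 and 3.83 in replicate 2. The acinar markers Ctrb1, Cela2a and Prss2 stayed at or below 17.1 CPM in all 4 sums. All 6 acinar markers together had 5 and 64 UMIs in delta-marker cells, against 5 and 103 UMIs in alpha cells. They were thus higher in replicate 2, as Cela1 was in alpha cells. What part acinar cells had in the Cela1 level was not tested.

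Neurog3, the transcription factor that specifies endocrine progenitors in the embryo (chromosome 10, 62133090 to 62134763), was also among them. It had 122 and 116 CPM in delta-marker cells, against 2.09 and 4.38 CPM in alpha cells (4.88 ± 0.35, adjusted p = 2.0e-09). In the other endocrine types it had 2.76 and 2.74 CPM in beta cells and 1.09 and 4.91 CPM in PP cells. An exon of Fam241b overlaps Neurog3 on the other strand, and the sources used here do not say whether counting used strand. Fam241b had 82.2 and 84.9 CPM in delta-marker cells, against 29.8 and 36.3 CPM in alpha cells, so reads of the 2 genes cannot be told apart with certainty. The rest of the 15 largest rises were Cyba, Adgrf5, Nnat and Cavin2. Cyba, a subunit of NADPH oxidase, had 5 and 10 UMIs in delta-marker cells, against 0 and 0 UMIs in alpha cells, and Cavin2, a caveola protein, had 21 and 23 UMIs in delta-marker cells, against 2 and 0 UMIs in alpha cells. The adhesion G protein-coupled receptor gene Adgrf5 had 55 and 52 UMIs in delta-marker cells, against 3 and 1 UMIs in alpha cells. Cyba, Adgrf5 and Cavin2 were higher in endothelial cells, at 265 and 844 CPM, 688 and 108 CPM and 496 and 235 CPM.

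Among the largest falls, Higd1a, a protein of the inner mitochondrial membrane, had 1 and 2 UMIs in delta-marker cells, against 173 and 477 UMIs in alpha cells, a ratio of alpha over delta-marker cells of 166 (56.4 to 805). Pappa2, a protease that cleaves IGF-binding proteins, had 18.6 and 10.9 CPM in delta-marker cells, against 444 and 392 CPM in alpha cells (-5.15 ± 0.29, adjusted p = 4.9e-11). Edn3, which encodes the peptide endothelin 3, had 4.89 and 6.67 CPM in delta-marker cells, against 139.7 and 133 CPM in alpha cells (-4.76 ± 0.35). In each of these genes the lowest alpha sum lay far above the highest delta-marker sum.

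Pdk4, a kinase that shuts down pyruvate dehydrogenase, had 4.89 and 0.606 CPM in delta-marker cells, against 109 and 76.1 CPM in alpha cells (-5.54 ± 0.49). Id1 and Id3, inhibitors of basic helix-loop-helix factors that BMP signals induce, were both low. Id1 had 2 and 0 UMIs in delta-marker cells, against 32 and 73 UMIs in alpha cells, and Id3 had 5 and 1 UMIs in delta-marker cells, against 84 and 178 UMIs in alpha cells. Tgm3, a transglutaminase, had 6.85 and 2.42 CPM in delta-marker cells, against 209 and 50.8 CPM in alpha cells (-4.97 ± 0.46). Upk3a, a uroplakin, had 2.93 and 4.85 CPM in delta-marker cells, against 64.9 and 113 CPM in alpha cells. Tmsb15b2 and Tmsb15b1, thymosin beta genes whose exons overlap on the same strand, had log2 fold changes of -4.61 and -4.14, and how counting divided reads between them is uncertain. Col1a2, a collagen gene, had 0 and 0 UMIs in delta-marker cells, against 11 and 17 UMIs in alpha cells. Mgst1, a microsomal glutathione transferase, had 0 and 0 UMIs in delta-marker cells, against 6 and 20 UMIs in alpha cells. The calls of Col1a2 and Mgst1 ended in DESeq2 (adjusted p = 0.0609 and 0.198). Col1a1 and Col3a1, which stellate cells express with Col1a2, had 0 UMIs in all 4 sums. The 6 stellate markers together had 0 and 1 UMIs in delta-marker cells, against 2 and 2 UMIs in alpha cells. What part stellate cells had in the Col1a2 counts was not tested.

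**Figure D3:**
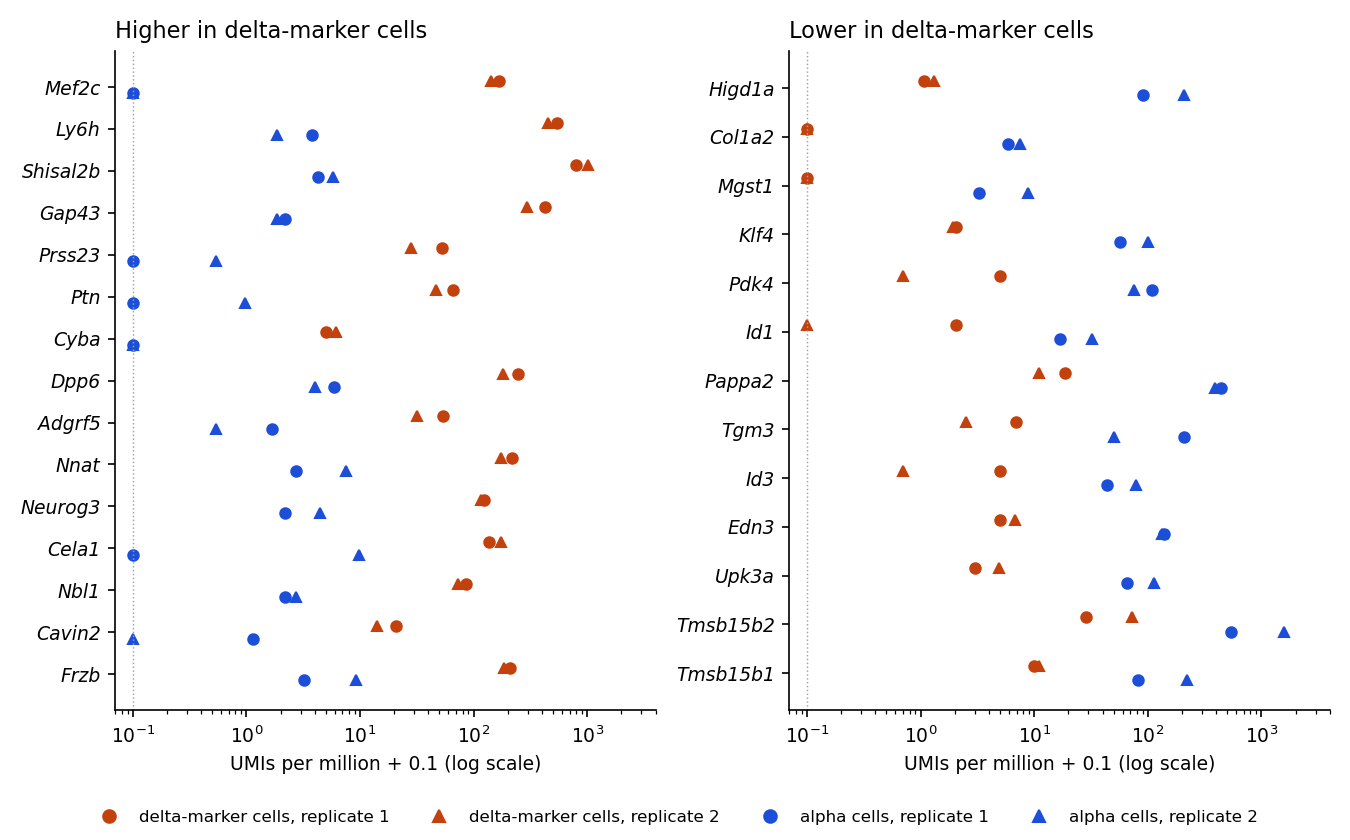
CPM plus 0.1 (log scale) for the 15 genes with the largest rise (left) and 13 of the 15 with the largest fall (right) in delta-marker cells, in order of fitted log2 fold change, with 1 point for each cell type and library and 0 UMIs on the dotted line. In every row both delta-marker sums lie on one side of both alpha sums.

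Of the 619 higher genes, 385 had their highest level among the 4 endocrine types in delta-marker cells in each library, 151 in beta cells and 10 in PP cells. Of the 406 lower genes, 230 were highest in alpha cells, 70 in beta cells and 34 in PP cells in each library. The remaining genes changed place between libraries. Hhex, Mef2c, Ly6h and Gap43 belonged to the genes high in delta-marker cells, since Mef2c had 2.76 and 3.42 CPM in beta cells and Gap43 0.919 and 1.82 CPM. Pdx1, Pcsk1 and Glp1r were instead highest in beta cells, and Slc30a8, which was lower in delta-marker cells, was highest in beta cells too. These placements compare levels only and were not tested against the other types. The genes were chosen by their difference between delta-marker and alpha cells, which favours the higher of these types as the top one. Placements over all genes tested are not given, so the counts do not show an excess.

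Transcription factors of the islet split both ways. Of 30 listed, 29 were tested, and 5 passed as higher and 7 as lower, 41.4% against 8.69% of all genes, with a median log2 fold change of -0.019 (-0.0081 over all genes). Hhex, Irx1, Irx2 and Pou3f4 are among the 12 and were described above. Pdx1, which acts in beta and delta cells, had 135 and 132 CPM in delta-marker cells, against 7.85 and 15.3 CPM in alpha cells (3.23 ± 0.29, adjusted p = 3.4e-08), and in beta cells it had 218 and 189 CPM. The endocrine factors Insm1 and Rfx6 were higher by 0.91 and 0.93, and Meis2, a TALE homeobox factor, by 0.82. Nkx2-2, a homeobox factor of endocrine cells, had 112 and 124 CPM in delta-marker cells, against 166 and 169 CPM in alpha cells (-0.79 ± 0.23), and Etv1, an ETS factor, fell by 0.81 on the log2 scale. By DESeq2 the adjusted p of Nkx2-2 was 0.154 and that of Etv1 0.0532, past the threshold in neither. Without TMM scaling 10 of the list were higher and 5 lower.

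Receptors for hormones and transmitters changed in both directions. Of 36 listed, 26 were tested, and 9 passed as higher and 6 as lower (57.7%), with a median of 0.26. Receptors for glucagon, GLP-1 and ghrelin were among the higher ones. Gcgr, the glucagon receptor, had 6 and 25 UMIs in delta-marker cells, against 1 and 6 UMIs in alpha cells (2.45 ± 0.63, adjusted p = 0.0145), and Glp1r, the receptor of the incretin GLP-1, had 59.7 and 113 CPM in delta-marker cells, against 8.89 and 39.8 CPM in alpha cells (1.60 ± 0.39, adjusted p = 0.00799). By DESeq2 neither passed (adjusted p = 0.111 for Gcgr and 0.165 for Glp1r). Gcgr and Glp1r were higher still in beta cells, at 50.7 and 62.0 CPM for Gcgr and 611 and 580.3 CPM for Glp1r.

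Receptors for nucleotides, acetylcholine and noradrenaline were higher as well. P2ry1, which senses ADP, had 47.0 and 54.6 CPM in delta-marker cells, against 1.57 and 4.38 CPM in alpha cells (3.76 ± 0.42), and Chrm3, the muscarinic M3 receptor, had 16 and 26 UMIs in delta-marker cells, against 3 and 4 UMIs in alpha cells (2.95 ± 0.56). Adra2a, the inhibitory alpha-2A adrenergic receptor, had 14.7 and 29.1 CPM in delta-marker cells, against 3.14 and 3.94 CPM in alpha cells (2.38 ± 0.40). Ghr, the growth hormone receptor, rose by 1.30, and Prlr, the prolactin receptor, by 1.20 on the log2 scale. By DESeq2, 4 of the list were higher and 5 lower, and Ghr and Prlr did not pass (adjusted p = 0.0572 and 0.153).

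Receptors that fell included the somatostatin receptor Sstr2, with 1 and 1 UMIs in delta-marker cells, against 28 and 35 UMIs in alpha cells, a ratio of alpha over delta-marker cells of 24.1 (6.40 to 203). Avpr1b, the vasopressin V1b receptor, had 1 and 1 UMIs in delta-marker cells, against 53 and 54 UMIs in alpha cells, a ratio of 40.9 (11.1 to 342). The fatty acid-derivative receptor Gpr119 had 2.93 and 3.64 CPM in delta-marker cells, against 33.0 and 52.9 CPM in alpha cells (-3.91 ± 0.46), and the fatty acid receptor Ffar1 fell by 1.15 on the log2 scale, but it was 0.21 with every cell named delta and did not pass by DESeq2 (adjusted p = 0.122). The AMPA glutamate receptor subunits Gria2 and Gria3 both fell. Gria2 had 113 and 69.7 CPM in delta-marker cells, against 261 and 147 CPM in alpha cells (-1.42 ± 0.21), and Gria3 had 30.3 and 15.8 CPM in delta-marker cells, against 60.2 and 56.0 CPM in alpha cells (-1.67 ± 0.29).

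Secreted factors and adhesion proteins leaned towards delta-marker cells. Of 28 listed secreted peptides and growth factors 18 were tested, with 6 higher and 1 lower (38.9%) and a median of 1.18. The testican genes, which encode secreted proteoglycans, rose together. Spock1 had 72.4 and 67.3 CPM in delta-marker cells, against 0.523 and 2.19 CPM in alpha cells (5.28 ± 0.45), Spock3 had 85 and 74 UMIs in delta-marker cells, against 1 and 2 UMIs in alpha cells, and Spock2 rose by 1.96. Ptn is given above, the ephrin ligand gene Efna5 rose by 2.43, and Sema3e, a secreted semaphorin, by 1.29 (not past the threshold by DESeq2, adjusted p = 0.251). Edn3 was the 1 lower member.

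Cell adhesion genes had 11 higher and 2 lower of 21 tested (61.9%, 25 listed), with a median of 1.08. Besides Cd24a, the immunoglobulin-type adhesion molecules Dscam (4.90, with 35 and 38 UMIs in delta-marker cells, against 1 and 2 UMIs in alpha cells) and Ncam2 (3.38) rose. Cadherin 8 (Cdh8) had 116 and 67.3 CPM in delta-marker cells, against 18.8 and 20.1 CPM in alpha cells (1.91 ± 0.27), and the classical cadherins Cdh1 and Cdh2 rose by 1.18 and 1.30. The presynaptic adhesion gene Nrxn2 rose by 2.03. An exon of Gm14964, itself higher by 2.61, overlaps Nrxn2 on the other strand, so their reads cannot be told apart with certainty. Slitrk6, a leucine-rich repeat protein of neurons, had 109 and 75.8 CPM in delta-marker cells, against 6.28 and 12.3 CPM in alpha cells (2.98 ± 0.34). Cntnap2 and Epcam were also higher, at 2.36 and 1.22. Nrcam fell, with 1 and 2 UMIs in delta-marker cells, against 18 and 24 UMIs in alpha cells, and the tetraspanin Cd9 fell by 1.82 on the log2 scale, though with every cell named delta it was 2.56. By DESeq2, 8 of the list were higher and 2 lower, without Cdh1, Cdh2 and Epcam.

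Of 24 genes of neurite growth and the cytoskeleton 23 were tested, and 4 rose and 2 fell (26.1%, median 0.22). Beside Gap43, Mapt, the microtubule protein tau, had 76.3 and 55.8 CPM in delta-marker cells, against 6.80 and 6.13 CPM in alpha cells (3.05 ± 0.34), Tubb3, a neuronal beta-tubulin, had 31.3 and 34.5 CPM in delta-marker cells, against 2.62 and 4.38 CPM in alpha cells (2.93 ± 0.39), and Stmn3, a stathmin, rose by 1.68. Tmsb4x, which binds actin monomers, fell, with 516 and 735 CPM in delta-marker cells, against 1336 and 2232 CPM in alpha cells (-1.76 ± 0.31), as did Marcksl1 (-1.60, DESeq2 adjusted p = 0.307). Without TMM scaling 7 of the list were higher and 1 lower, by DESeq2 5 and 1, and with every cell named delta 12 and 2, with a median of 1.22. Nerve and Schwann cell markers stood low in both types, at a summed 28.4 and 38.2 CPM in delta-marker cells, against 14.6 and 26.3 CPM in alpha cells, with Sox10 at 0, and their part in these values was not tested.

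The granule and prohormone genes had 3 higher and 3 lower of 18 tested (33.3%, median -0.041), and the changes ran in opposite directions for related enzymes and granins. The convertase gene Pcsk1 rose, with 72.4 and 63.6 CPM in delta-marker cells, against 6.28 and 21.4 CPM in alpha cells (1.96 ± 0.39, adjusted p = 0.00139), and its log2 difference was 3.00 in replicate 1 and 1.32 in replicate 2. By DESeq2 Pcsk1 did not pass (adjusted p = 0.186). Pcsk2, the convertase that releases glucagon from proglucagon, fell, with 2579.8 and 2152 CPM in delta-marker cells, against 4843 and 4008 CPM in alpha cells (-1.18 ± 0.33, adjusted p = 0.0259, or 0.0908 without TMM scaling). Among granins, the acidic proteins that fill dense-core granules, chromogranin B (Chgb) had 3015 and 2961 CPM in delta-marker cells, against 669.6 and 650.2 CPM in alpha cells (1.91 ± 0.26, adjusted p = 1.9e-05). Secretogranin II (Scg2) had 4515 and 3145 CPM in delta-marker cells, against 924 and 1028 CPM in alpha cells (1.66 ± 0.33). Vgf, a precursor of neuroendocrine peptides, was low instead, with 0 and 3 UMIs in delta-marker cells, against 48 and 73 UMIs in alpha cells, a ratio of alpha over delta-marker cells of 30.8 (10.3 to 152). Slc30a8, the zinc transporter of granules, had 86.1 and 125 CPM in delta-marker cells, against 783 and 729.9 CPM in alpha cells (-3.10 ± 0.29).

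Exocytosis genes had 3 higher and 3 lower of 27 tested (22.2%, 30 listed, median -0.039). The Rab3 GTPases, which sit on secretory vesicles, changed places. Rab3b had 517 and 510.4 CPM in delta-marker cells, against 40.3 and 50.8 CPM in alpha cells (3.22 ± 0.27), and Rab3c had 9.78 and 3.64 CPM in delta-marker cells, against 67.5 and 57.8 CPM in alpha cells (-3.60 ± 0.36). Stxbp5l, a tomosyn that binds SNARE proteins, rose by 2.51 and the synaptotagmin gene Syt5 by 0.97. Cadps, which primes dense-core granules, had 9.78 and 33.9 CPM in delta-marker cells, against 93.1 and 74.8 CPM in alpha cells (-2.12 ± 0.35), with log2 differences of -3.43 in replicate 1 and -1.32 in replicate 2. Syt16 fell by 1.97 on the log2 scale (DESeq2 adjusted p = 0.0524).

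Among ion channels, 26 were tested, and 6 were higher and 1 lower (26.9%, 30 listed, median 0.22). Cacna1h, a low-voltage-activated T-type calcium channel, had 20 and 51 UMIs in delta-marker cells, against 2 and 2 UMIs in alpha cells (4.39 ± 0.72), and Cacna2d2, a calcium channel auxiliary subunit, had 27 and 34 UMIs in delta-marker cells, against 1 and 2 UMIs in alpha cells. Kcnip1, which modulates A-type potassium channels as Dpp6 does, had 65.5 and 89.1 CPM in delta-marker cells, against 4.19 and 4.38 CPM in alpha cells (3.91 ± 0.35). Kcnmb2, a subunit of BK potassium channels, rose by 1.38, the sodium channel Scn9a by 1.11 and the cation channel Trpm4 by 1.20. Kcnk3, the acid-sensitive background potassium channel TASK-1, fell, with 16.6 and 11.5 CPM in delta-marker cells, against 85.3 and 75.7 CPM in alpha cells (-2.80 ± 0.28).

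Genes of calcium, cAMP and G protein signalling had 6 higher and 0 lower of 30 tested (20%, 34 listed, median 0.19). Pcp4, a small calmodulin-binding protein, had 91.0 and 193 CPM in delta-marker cells, against 7.32 and 13.6 CPM in alpha cells (3.48 ± 0.30). An exon of a gene named Igsf5 overlaps it on the same strand, the annotation gives that name to 2 genes, and how counting divided reads among them is uncertain. Rgs2, a GTPase-activating regulator of Gq signals, had 288 and 213 CPM in delta-marker cells, against 48.7 and 35.4 CPM in alpha cells (2.31 ± 0.28). Ppp1r1a, an inhibitor of protein phosphatase 1, rose by 2.01, the regulatory subunit of protein kinase A Prkar2b by 1.48, and the G protein gamma subunits Gng12 and Gng4 by 1.29 and 0.99. At an unadjusted p under 0.05, 9 higher and 3 lower members were found. By DESeq2 5 were higher and 0 lower, without Prkar2b.

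Amino acid transport and metabolism had 0 higher and 8 lower of 21 tested (38.1%, 26 listed), with a median of -0.54. Slc7a2, a transporter of arginine and lysine, had 39.1 and 47.3 CPM in delta-marker cells, against 619.9 and 373 CPM in alpha cells (-3.75 ± 0.33, adjusted p = 2.6e-08). Oat, ornithine aminotransferase, had 7.83 and 7.88 CPM in delta-marker cells, against 34.0 and 59.1 CPM in alpha cells (-2.86 ± 0.32). In both genes the alpha sums were above the delta-marker sums in both libraries. The neutral amino acid transporters Slc38a4 and Slc7a8 fell by 2.08 and 2.35 log2 units, and Slc3a2, a heavy chain that pairs with Slc7a8, by 0.98. Glud1, glutamate dehydrogenase, fell by 0.94. Slc38a5 is given with the alpha markers. At an unadjusted p under 0.05 there were 0 higher and 10 lower, and by DESeq2 0 higher and 8 lower. Without TMM scaling and without the replicate block 6 were lower in each case. Slc3a2 and Glud1 were past the threshold in neither, at an adjusted p of 0.0839 and 0.0545 without TMM scaling.

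Other metabolic lists are read against the 8.69% called over all genes. Glucose uptake and glycolysis, with 1 higher and 2 lower of 24 tested, stood near that share (12.5%, median 0.060). Ldha, lactate dehydrogenase A, had 6 and 16 UMIs in delta-marker cells, against 1 and 1 UMIs in alpha cells, and the hexokinase gene Hk1 had 1 and 3 UMIs in delta-marker cells, against 14 and 26 UMIs in alpha cells (adjusted p = 0.0306). Pdk4 is given above, and Aldoa, an aldolase whose name the annotation gives to 2 genes, had 489 and 571 CPM in delta-marker cells, against 209.8 and 350.5 CPM in alpha cells without passing (adjusted p = 0.0903). Nuclear genes of oxidative phosphorylation had 0 calls of 23 in edgeR, or 1 lower by DESeq2 and 1 higher and 1 lower at an unadjusted p under 0.05, with a median of -0.00058. Genes of the mitochondrial genome had 0 of 11 in edgeR, in DESeq2 and at an unadjusted p under 0.05 (median -0.40). ER protein folding, with 2 of 28 past the threshold, also stood near it (7.14%, median 0.17). Atf4, a transcription factor of the integrated stress response, fell by 1.03 (adjusted p = 0.0162), and Edem1, which directs misfolded proteins to degradation, rose by 1.16 (adjusted p = 0.0498), and both calls ended in DESeq2 and without the replicate block. Without TMM scaling this list had 6 higher and 0 lower.

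Immediate early and dissociation stress genes, which cells can switch on while tissue is taken apart, had 1 higher and 6 lower of 20 tested (35%), with a median of -0.73. Atf3 had 12.7 and 60.6 CPM in delta-marker cells, against 64.3 and 434 CPM in alpha cells (-3.29 ± 0.58, adjusted p = 3.9e-04), and Klf4 had 1.96 and 1.82 CPM in delta-marker cells, against 56.5 and 99.8 CPM in alpha cells (-5.67 ± 0.47). Junb had 146 and 283 CPM in delta-marker cells, against 366 and 656 CPM in alpha cells (-1.55 ± 0.31), and it overlaps Prdx2 on the other strand. Zfp36, Egr1 and Dusp1 fell by 1.83, by 1.13 and by 0.91 on the log2 scale, and the groups of Egr1 and Dusp1 overlapped across libraries. In these genes other than Klf4 both types stood higher in replicate 2, and without the replicate block the list had 0 genes higher and 1 lower. By DESeq2 it had 1 higher and 4 lower, without Egr1 and Dusp1. The heat-shock gene Hspa1a rose, with 19.6 and 313 CPM in delta-marker cells, against 6.28 and 62.6 CPM in alpha cells (1.90 ± 0.38). Its groups overlapped across libraries too, and its call ended without the replicate block (edgeR adjusted p = 0.635). What part handling of the tissue had in these differences was not tested.

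Imprinted genes, which are expressed from a single parental allele, had 4 higher and 1 lower of 16 tested (31.2%, 18 listed, median 0.44). Dlk1, a Notch-type ligand, had 66 and 44 UMIs in delta-marker cells, against 0 and 3 UMIs in alpha cells (5.49 ± 0.71). Nnat, a small membrane protein of neurons and endocrine cells, had 216 and 174 CPM in delta-marker cells, against 2.62 and 7.44 CPM in alpha cells (4.93 ± 0.33). Mest rose by 4.31 and Rasgrf1, a Ras exchange factor, by 3.65. Grb10, an adaptor that restrains insulin and IGF receptors, fell, with 34.2 and 26.7 CPM in delta-marker cells, against 218 and 168 CPM in alpha cells (-2.94 ± 0.27). Of 33 splicing regulators tested (40 listed), 1 passed (3.03%), Mbnl2, with 151 and 139 CPM in delta-marker cells, against 236 and 233 CPM in alpha cells (-0.97 ± 0.22, adjusted p = 0.00561). The list's median was -0.16, or 0.11 without TMM scaling, where 2 of the list were higher and 0 lower and Mbnl2 did not pass (adjusted p = 0.052).

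**Figure D4:**
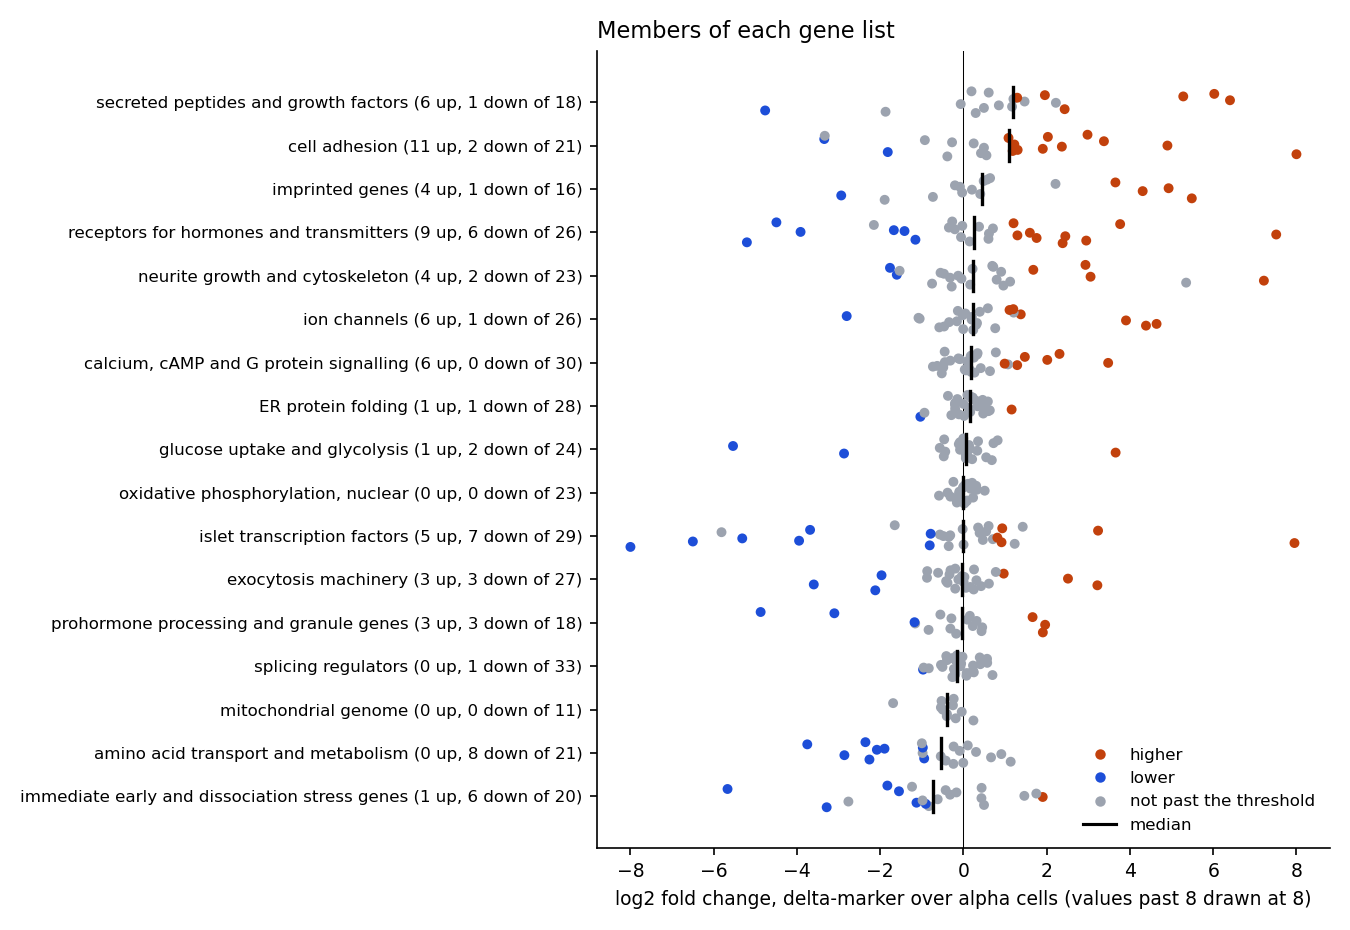
Log2 fold change of delta-marker over alpha cells for each tested member of 17 gene lists, with the counts past the threshold beside each name, coloured points for members that passed, and black bars for list medians. Cell adhesion holds 11 coloured points to the right and amino acid transport and metabolism 8 to the left, while nuclear oxidative phosphorylation holds 0.

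Markers of other cell types were checked in the same sums. The 8 beta markers summed to 36040 and 38124 CPM in delta-marker cells, against 2700.5 and 7478 CPM in alpha cells, of which Iapp makes up most, and Iapp was the 1 member that passed. The other 7 had log2 fold changes above 0 without passing, the median over all 8 was 0.72, and 3 of the 8 had an unadjusted p under 0.05. With every cell named delta, 8 of the 8 were higher. What part beta cells had in the levels of Iapp, Pdx1, Glp1r and Pcsk1 was not tested. The 4 PP markers summed to 57725 and 83554 CPM in delta-marker cells, against 26677 and 38352 CPM in alpha cells. Tspan8, a tetraspanin, had 386 and 428 CPM in delta-marker cells, against 30.9 and 31.1 CPM in alpha cells (3.45 ± 0.32), and Fxyd3, a regulator of the sodium pump, had 82.2 and 139 CPM in delta-marker cells, against 23.0 and 17.1 CPM in alpha cells (2.15 ± 0.54, adjusted p = 0.011, or 0.23 in DESeq2). What part PP cells had in these values was not tested.

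Endothelial markers summed to 7.83 and 10.9 CPM in delta-marker cells, against 18.3 and 7.44 CPM in alpha cells, with Esm1 and Kdr at 0. Endothelial cells had 13946 and 2749 CPM. Stellate markers summed to 0 and 0.606 CPM in delta-marker cells, against 1.05 and 0.875 CPM in alpha cells, with Col1a1, Col3a1 and Acta2 at 0. Acinar markers summed to 4.89 and 38.8 CPM in delta-marker cells, against 2.62 and 45.1 CPM in alpha cells, and macrophage markers to 137 and 142 CPM in delta-marker cells, against 91.6 and 105 CPM in alpha cells, with Lyz2 and Ptprc at 0. Cycling markers summed to 20.5 and 12.7 CPM in delta-marker cells, against 15.7 and 13.6 CPM in alpha cells. Duct markers summed to 408 and 336 CPM in delta-marker cells, against 309 and 345 CPM in alpha cells, and 1 of the 6 passed, Sox9, with 5 and 8 UMIs in delta-marker cells, against 0 and 0 UMIs in alpha cells, while Krt19 was at 0. Sox9 did not pass with alpha cluster 1 alone (adjusted p = 0.0606), with equal totals (0.0706) or without the replicate block (0.178). The epsilon list had 1 tested member, Acsl1, which had 10.8 and 12.1 CPM in delta-marker cells, against 14.1 and 8.31 CPM in alpha cells.

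Isoform usage was compared as the share of a gene's UMIs held by each annotated transcript. Of 4088 genes tested, 4 passed in edgeR's diffSpliceDGE (0.0978%), namely Gnas, Lpl, Auts2 and Snhg8, and 308 had an unadjusted p under 0.05 in at least 1 transcript. There were 842 genes with 50 UMIs or more in every sum, and the tests of the others rest on fewer. Among those 842 genes the median of the largest shift per gene was 4.89 percentage points.

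Gnas held the largest difference in shares among the 4. This imprinted locus on chromosome 2 of GRCm38 uses several first exons: that of Nesp gives the granule protein NESP55, that of Gs-alpha gives the stimulatory G protein subunit, and exon 1A gives mostly noncoding transcripts. The reading frames of the first pair start differently, as the first 60 coding bases of each show, at chr2:174284674-174284733 for Gnas-211 and chr2:174330296-174330355 for Gnas-208 (plus strand, start codons in capitals, from GENCODE M21).
Nesp: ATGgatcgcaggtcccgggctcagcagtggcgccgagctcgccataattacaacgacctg
Gs-alpha: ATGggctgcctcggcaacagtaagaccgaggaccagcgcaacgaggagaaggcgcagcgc
Transcripts that start at Nesp took 81.5 and 86.8% in delta-marker cells, against 12.9 and 18.97% in alpha cells. Those that start at exon 1A took 6.96 and 4.45% in delta-marker cells, against 67.0 and 67.6% in alpha cells, and those that start at Gs-alpha exon 1 took 8.28 and 6.00% in delta-marker cells, against 19.5 and 13.4% in alpha cells. The shares rest on 2842 Gnas UMIs in delta-marker cells and 2556 in alpha cells. Among Gnas transcripts the largest rise was that of Gnas-211, at 62.3 and 67.9% in delta-marker cells, against 12.4 and 18.6% in alpha cells, a difference of 49.6 ± 0.477 points (SD, 2 libraries, transcript adjusted p = 5.4e-11). The largest fall was that of Gnas-221, an exon 1A transcript, at 0.773 and 0.904% in delta-marker cells, against 21.7 and 31.0% in alpha cells (adjusted p = 7.8e-36). Without the replicate block Gnas-211 did not pass on its own (adjusted p = 0.232), while Gnas as a gene did. Gm20721 overlaps the locus on the other strand.

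In Auts2, a gene of neuronal development, the coding transcript Auts2-208 took 11.3 and 7.63% in delta-marker cells, against 0 and 0.649% in alpha cells (9.14 ± 3.06 points, transcript adjusted p = 0.00327). In UMIs this was 25 and 27 in delta-marker cells, against 0 and 1 in alpha cells. The most used transcript, Auts2-207, took 58.8 and 75.4% in delta-marker cells, against 66.4 and 84.4% in alpha cells, and its own test did not pass. In Snhg8, a small nucleolar RNA host gene, the retained-intron transcript Snhg8-202 took 45.3 and 14.8% in delta-marker cells, against 17.2 and 1.99% in alpha cells (adjusted p = 0.00844). Its share was higher in delta-marker cells within each library, but the groups overlapped across libraries. The spliced Snhg8-201 took 54.7 and 83.1% in delta-marker cells, against 79.5 and 98.0% in alpha cells. Neither Auts2-208 nor Snhg8-202 passed without the replicate block (adjusted p = 0.0581 and 1). Snhg8 was also not called with limma's diffSplice (Snhg8-202 adjusted p = 0.0931) or with alpha cluster 1 alone, and Auts2 was not called when transcripts needed a 10% share.

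Lpl, lipoprotein lipase, passed with 39 and 46 UMIs in delta-marker cells, against 564 and 721 in alpha cells, which is below the 50 UMIs asked of a named isoform, and it is given because it is 1 of the 4. Its retained-intron transcript Lpl-202 took 38.5 and 34.8% in delta-marker cells, against 3.37 and 1.53% in alpha cells (adjusted p = 1.0e-10). The coding transcript Lpl-201 had 23 and 27 UMIs in delta-marker cells, against 477 and 669 in alpha cells. Lpl-202 itself had 15 and 16 UMIs in delta-marker cells, against 19 and 11 in alpha cells.

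**Figure D5:**
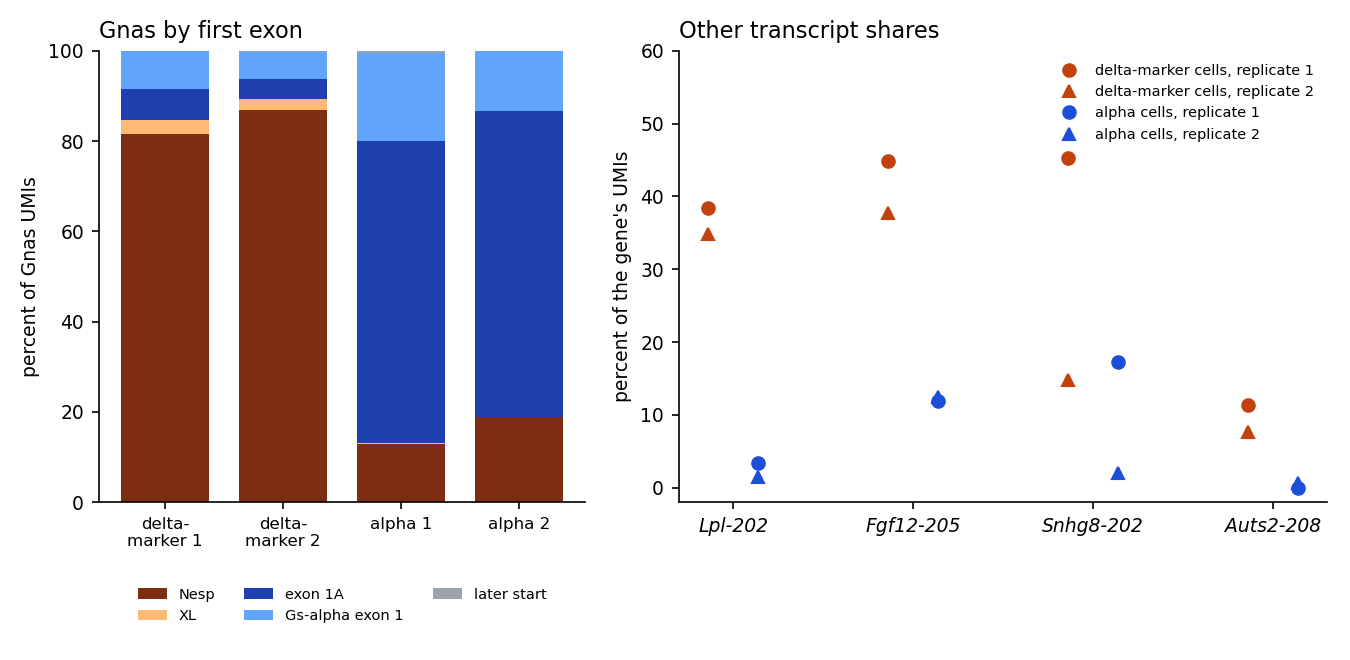
Left, percent of Gnas UMIs by the first exon of the transcript, stacked to 100% for each cell type and library. Right, percent of the gene's UMIs held by Lpl-202, Fgf12-205, Snhg8-202 and Auts2-208, with 1 point for each cell type and library. Nesp starts fill most of both delta-marker bars, exon 1A starts fill most of both alpha bars, and of the transcripts on the right Snhg8-202 overlaps between the groups.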

How the data were processed

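Single-cell UMI counts per gene and per annotated transcript were deposited for the 2 modified 5' libraries, with a cell table that gives the authors' clusters, per the file headers. The labels give the build mm10. The aligner, the counting tool, the use of strand, the cell filter and which subset the tables hold are not given in the sources used here. Cells were kept as in the authors' cell table (4814 of 6395 and 1093 of 2124 barcodes), and each cell's summed count equalled its total there. GENCODE M21 gave a gene for 69648 of the 69994 transcripts.

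UMIs were summed per library for 6 classes, namely delta-marker, alpha, beta, PP, endothelial and stellate cells, which gave 12 sums. They were fitted together in edgeR 4.0.16 (R 4.3.3) with TMM scaling, filterByExpr, class and library in the model, 5 residual degrees of freedom, quasi-likelihood tests and Benjamini-Hochberg adjustment at 0.05. The library is a block because each library gives both types, and library deviations of the 2 types correlated at 0.398 over 11793 genes. The SE is the log2 fold change divided by the square root of F. Isoform usage was tested with diffSpliceDGE on transcripts with 10 UMIs and a 5% share, with Simes p-values per gene. Folds against 0 UMIs use a floor of 3 UMIs over both libraries, and ratios against 1 to 3 UMIs carry exact 95% intervals, on TMM-scaled totals. These cover counting error only. Procedures were tested on simulated counts.

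The clusters were made from the genes tested, so gene p-values are circular in part, and members, lists and settings were chosen with earlier results of these data known. The genes named begin with the 15 largest rises and falls past the threshold, of like direction in both libraries, without markers, predicted and mitochondrial genes. They had to be above median expression over all 12 sums, so a gene low in both compared types could pass through another cell type. Also named are up to 4 members of each list by p, all hormone, delta and alpha markers, and the other list members past the threshold. These other list members were added after their values were seen. Some genes that the rule names are not reported here. Named isoforms needed gene and transcript adjusted p under 0.05 and 50 UMIs in each sum. Alternatives used DESeq2 1.42.0, limma 3.58.1, other filters, scalings and cell sets. Scrublet in scanpy 1.11.5, at an expected 6%, called 6 and 13 cells, under the expected rate in each library, so the 6% with the highest scores were left out as an alternative. No other doublet step was made here.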

Additional observations from a re-analysis of the deposited data

How the results depend on the processing

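The number of genes past the threshold was within 1.5 times of 1025 in 10 of 12 alternatives, from 860 with DESeq2 to 1413 without TMM scaling. Without the replicate block it was 539 (338 higher, 201 lower), and with only the 4 sums of the 2 types it was 2250 (1272 higher, 978 lower). Without TMM scaling, 1139 genes were higher. The cause was not tested. Of the 1025 genes, 808 were shared with DESeq2 and 893 with no TMM scaling. Of 146 named genes past the threshold, 25 did not pass by DESeq2 and 43 did not pass without the replicate block, among them Atf3, Atf4, Cd9, Cdh1, Cdh2, Col1a2, Cyba, Dusp1, Edem1, Egr1, Epcam, Etv1, Ffar1, Fxyd3, Gcgr, Ghr, Glp1r, Glud1, Gng4, Gria2, Hk1, Hspa1a, Insm1, Junb, Kcnmb2, Marcksl1, Mbnl2, Meis2, Mgst1, Nkx2-2, Pcsk1, Pcsk2, Ppp1r1a, Prkar2b, Prlr, Rfx6, Scg2, Sema3e, Slc3a2, Sox9, Syt16 and Zfp36. Named calls that ended were 12 without TMM scaling (Atf4, Dusp1, Egr1, Etv1, Ffar1, Glud1, Marcksl1, Mbnl2, Nkx2-2, Pcsk2, Slc3a2 and Syt16), 11 with alpha cluster 1 alone (Dusp1, Edem1, Egr1, Ffar1, Gcgr, Marcksl1, Mgst1, Prlr, Sema3e, Sox9 and Syt16), 8 with equal totals (Edem1, Gcgr, Hk1, Marcksl1, Mgst1, Prlr, Sox9 and Syt16), 8 with every cell named delta (Atf4, Epcam, Hk1, Meis2, Nkx2-2, Rfx6, Sema3e and Slc3a2) and 2 without the highest doublet scores (Col1a2 and Ffar1). Without the replicate block, the higher and lower calls of a list moved by over 1.5 times to 2 and 5 in islet transcription factors, 5 and 4 in receptors for hormones and transmitters, 1 and 2 in prohormone processing and granule genes, 7 and 1 in cell adhesion, 3 and 0 in calcium, cAMP and G protein signalling, 0 and 0 in ER protein folding, 0 and 1 in immediate early and dissociation stress genes and 0 and 0 in splicing regulators. Without TMM scaling, the higher and lower calls of a list moved by over 1.5 times to 6 and 0 in ER protein folding, 1 and 0 in nuclear oxidative phosphorylation, 2 and 0 in splicing regulators and 7 and 1 in imprinted genes. With every cell named delta, the higher and lower calls of a list moved by over 1.5 times to 9 and 2 in secreted peptides and growth factors, 7 and 4 in exocytosis machinery, 6 and 1 in glucose uptake and glycolysis, 12 and 2 in neurite growth and cytoskeleton, 4 and 0 in ER protein folding, 2 and 0 in nuclear oxidative phosphorylation and 2 and 3 in splicing regulators. Of the named genes past the threshold 2 changed sign, both with every cell named delta, at 2.56 for Cd9 and 0.21 for Ffar1. Of those that did not pass, Acsl1 turned to 0.066 without TMM scaling, Top2a to -0.13 with alpha cluster 1 alone, and Plvap to 0.13, 0.62 and 0.21 with cells named alike from transcripts, with equal totals and without the highest doublet scores. With every cell named delta, Pecam1 turned to 0.16 and Sncg to 7.14.

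The 4 isoform calls became 10 with limma's diffSplice, of which 3 were shared with the 4 and Snhg8 was not, 7 with only the 4 sums, 15 with every cell named delta and 2 (Gnas and Lpl) without the replicate block, where Gnas-211 and Auts2-208 had adjusted p of 0.232 and 0.0581. Leaving out a replicate leaves 1 sum a type, which gives values with no test and no count. They are the log2 differences within the remaining library, with a prior count of 2. They therefore differ from the fitted values in method as well as in library. Every gene past the threshold had like signs in both libraries, so kept signs here add no support. In these values every named gene past the threshold kept its sign, and among those with at least 20 UMIs in each type these log2 values moved by more than 1.5-fold: Atf3 -2.56 without replicate 2, Cadps -1.32 without replicate 1 and -3.43 without replicate 2, Cd9 -1.19 without replicate 2, Cela1 3.83 without replicate 1 and 6.75 without replicate 2, Frzb 3.99 without replicate 1 and 5.32 without replicate 2, Fxyd3 2.75 without replicate 1 and 1.46 without replicate 2, Glp1r 2.28 without replicate 2, Hspa1a 1.18 without replicate 2, Iapp 3.56 without replicate 2, Marcksl1 -0.94 without replicate 2, Nnat 4.16 without replicate 1 and 5.57 without replicate 2, Pcsk1 1.32 without replicate 1 and 3.00 without replicate 2, Prkar2b 0.73 without replicate 1, Slc7a2 -3.15 without replicate 1, Slitrk6 2.33 without replicate 1 and 3.58 without replicate 2, Spock2 2.65 without replicate 2, Tmsb15b1 -3.25 without replicate 2. The within-library values of genes with fewer UMIs depend on the prior count of 2, which the fitted values did not use. Depth limits low genes: 22 higher and 12 lower genes had 0 UMIs in the other type, and 842 of the 4088 genes tested for isoforms had 50 UMIs in every sum.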

Other observations

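Outside the naming rule, 7 genes had at least 50 UMIs in delta-marker cells in each library and at most 3 over both alpha sums, and they were singled out after their values were seen. Besides Mef2c, Ptn and Spock3 these were Ppp1r17, Ptprz1, Bmp3 and Cd44. Ptprz1, a receptor-type phosphatase that binds pleiotrophin, had 145 and 137 UMIs in delta-marker cells, against 0 and 1 UMIs in alpha cells, a ratio of 369 (65.7 to 14618) with its 95% counting interval, and did not pass by DESeq2 (adjusted p = 0.059). In beta cells Ptprz1 had 0.184 and 0.456 CPM and in PP cells 0 CPM in both libraries. Ppp1r17, an inhibitor of protein phosphatase 2A, had 124 and 184 UMIs in delta-marker cells, against 1 and 0 UMIs in alpha cells. Bmp3, a member of the BMP family, had 69 and 76 UMIs in delta-marker cells, against 1 and 1 UMIs in alpha cells. Cd44, a hyaluronan receptor, had 58 and 91 UMIs in delta-marker cells, against 1 and 2 UMIs in alpha cells, and it was also seen in beta cells at 25.4 and 18.0 CPM.

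By the same UMI limits 10 genes stood high in alpha cells and at 0 to 3 UMIs in delta-marker cells. The alpha sums hold more UMIs, so these limits ask for a lower CPM there, and Avpr1b met them at 27.7 and 23.6 CPM. The counts of 7 and 10 genes can therefore not be set against each other. Gfra3, a co-receptor for the GDNF family ligand artemin, had 0 and 0 UMIs in delta-marker cells, against 80 and 82 UMIs in alpha cells, at least 41.3-fold lower, a call that ended in DESeq2 (adjusted p = 0.483), and Hhatl had 0 and 0 UMIs in delta-marker cells, against 69 and 138 UMIs in alpha cells, at least 52.8-fold lower. Gfra3 had 0.919 and 0.684 CPM in beta cells and 0 CPM in PP cells. Galnt13, a glycosyltransferase, had 1 and 0 UMIs in delta-marker cells, against 73 and 61 UMIs in alpha cells, with 55.8 and 22.9 CPM in PP cells. Others were Avpr1b, Higd1a, Irx1, Igsf21, Mamld1 and Tent5d.

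Fgf12 is a near case among isoforms. It encodes an FGF homologous factor that binds voltage-gated sodium channels and is not secreted. Its transcript Fgf12-205 took 44.8 and 37.7% in delta-marker cells, against 11.9 and 12.5% in alpha cells, with 56 and 49 UMIs in delta-marker cells, against 16 and 14 in alpha cells. The transcript passed on its own (adjusted p = 0.0285), but the gene did not (adjusted p = 0.0671), and with a minimum of 30 UMIs the gene was among 5 called. The transcript itself did not pass with alpha cluster 1 alone, with limma's diffSplice or without the replicate block (adjusted p = 0.0802, 0.0542 and 0.432). Fgf12-201 took 33.6 and 40.0% in delta-marker cells, against 52.2 and 51.8% in alpha cells. The 2 transcripts differ in their first coding exon, 13 bases of Fgf12-205 against 199 of Fgf12-201, and 60 coding bases of each up to the same point are shown to let the first exons be compared, with the unshared bases in capitals (GENCODE M21, minus strand, across an intron, ends at chr16:28398342-28752846 and chr16:28398342-28445005).
Fgf12-205: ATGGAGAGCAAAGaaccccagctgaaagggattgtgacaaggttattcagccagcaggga
Fgf12-201: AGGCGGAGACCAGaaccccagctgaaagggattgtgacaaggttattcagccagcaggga

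Besides Gnas and Fgf12, 8 genes with 50 UMIs in every sum had a transcript whose share moved one way by 20 points or more in both libraries, without passing in the main comparison. Among the alternatives, Rora was called with only the 4 sums and with every cell named delta, and Robo2 with limma's diffSplice. Rora-202, of a nuclear receptor gene, took 10.0 and 4.26% in delta-marker cells, against 31.8 and 33.7% in alpha cells (gene adjusted p = 0.114). Robo2-209, a retained-intron transcript of an axon guidance receptor gene, took 80.8 and 81.5% in delta-marker cells, against 51.3 and 41.3% in alpha cells. Srsf3-202, of a splicing factor gene, took 63.9 and 75.0% in delta-marker cells, against 38.4 and 51.7% in alpha cells. The others were Atp6v1h, Krtcap3, Naxd, Sptbn1 and Tjp1.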
